A study of Solanum lycopersicum with 4 samples.

Results

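The miR172-type APETALA2 (AP2) genes of tomato (Solanum lycopersicum) were followed in floral apices and closed flower buds of plants labelled MT and of MT plants overexpressing the microRNA miR156, labelled 156OE. The members were 7 gene IDs, recalled from published lists of tomato genes: AP2a (Solyc03g044300), AP2b (Solyc02g064960), AP2c (Solyc02g093150), AP2d (Solyc11g072600), AP2e (Solyc06g075510) and the pair listed as TOE-like, Solyc09g007260 and Solyc04g049800. All 7 IDs were among the 33976 genes quantified, and all 7 passed the filter on low counts. RNA sequencing gave 2 libraries of each genotype from RNA replicates. Whether the replicates were grown separately is not stated, and p-values thus cover the spread between these libraries, which may be technical. Both groups share the MT background and the tissue, and no source used here gives the promoter of the transgene, the line or the age of the plants.

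AP2 and TOE proteins are transcription factors with AP2 DNA-binding domains. In Arabidopsis, AP2 restricts the floral organ identity gene AGAMOUS and the TOE factors delay flowering, and their transcripts are both cleaved and held back from translation by the microRNA miR172. In the age pathway worked out there, miR156 lowers SBP-box transcription factors, SBP-box factors raise MIR172, and miR172 lowers the AP2 group. In tomato, AP2a is known as a repressor of ethylene production during fruit ripening. The libraries measure transcripts and not miR172 or protein, so repression of translation cannot be seen in them.

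The libraries held 11203505 and 9369713 assigned reads in MT and 8440384 and 1685657 in 156OE. Replicate 2 of 156OE thus had the least depth, and it also stood apart from its partner: log2 CPM (reads per 1000000 assigned reads) correlated across genes at 0.917 in the 156OE pair and at 0.987 in the MT pair. Results are therefore also given without each 156OE library. Levels are in TPM (transcripts per 1000000), which correct for transcript length and can be set side by side between genes. Tests were run on read counts with edgeR across 18385 genes. In a mixed tissue, fewer cells of a type and less RNA per cell cannot be told apart.

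AP2d and Solyc09g007260 made up most of the AP2 transcript pool in every library. In MT, AP2d stood at 52.0 and 57.7 TPM and Solyc09g007260 at 43.6 and 38.95 TPM, and the libraries of these genes did not overlap. AP2c followed at 7.56 and 8.71 TPM. AP2a and AP2b overlapped each other, at 3.42 and 4.14 TPM against 3.24 and 3.86 TPM. AP2e lay lower at 2.36 and 3.14 TPM, overlapped by neither AP2b nor Solyc04g049800, which was the lowest of the 7 at 1.77 and 1.47 TPM. AP2d exceeded 83.1% and 84.7% of the detected genes of the MT libraries, and Solyc04g049800 exceeded 19.9% and 17.1%.

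**Figure D1:**
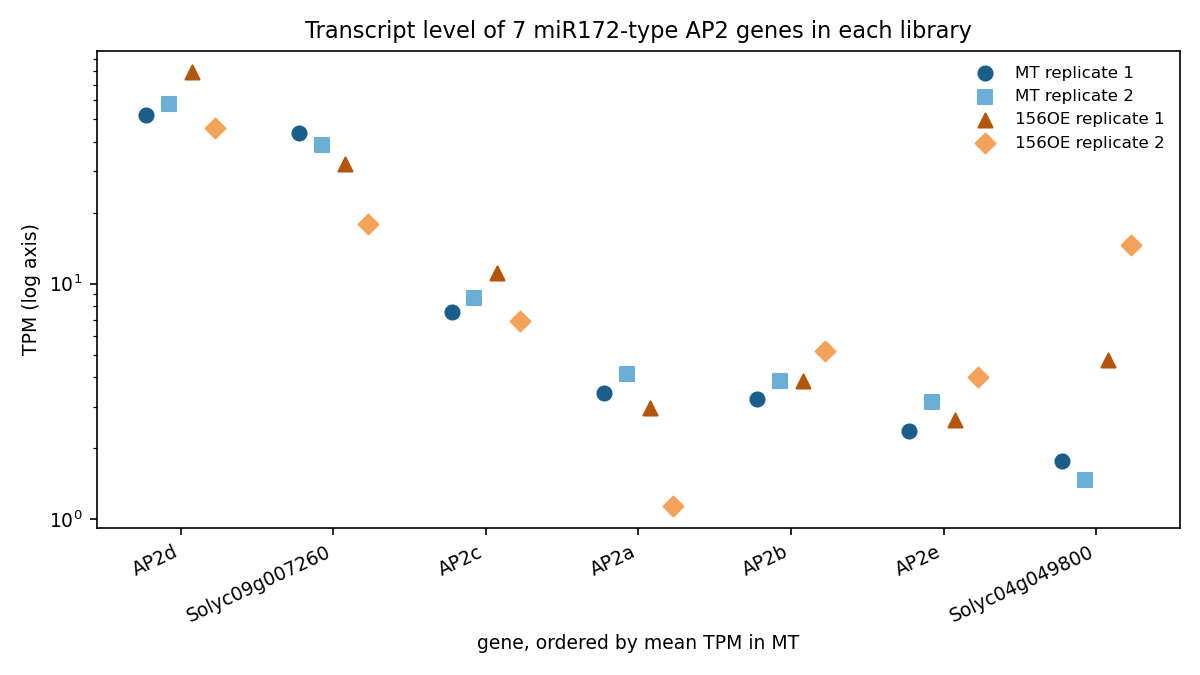
TPM of each of the 7 genes (horizontal axis, ordered by mean level in MT) in each of the 4 libraries, 1 point per library, on a log axis. Solyc04g049800 is the lowest gene in MT and lies above both MT libraries in both 156OE libraries, while Solyc09g007260 and AP2a lie below theirs.

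Solyc04g049800 had the highest fitted change of the 7. Its level was 1.77 and 1.47 TPM in MT, 4.75 TPM in 156OE replicate 1 and 14.5 TPM in 156OE replicate 2. Both 156OE libraries lay above both MT libraries, and they differed from each other more than the MT pair did. The reads behind these values were 22 and 15 in MT and 46 and 29 in 156OE, whole numbers in the deposited estimates. Per assigned read, counting error (exact Poisson 95% intervals, which cover counting error only) leaves 1.23 to 2.97 and 0.896 to 2.64 CPM in the MT libraries. In 156OE it leaves 3.99 to 7.27 CPM in replicate 1 and 11.5 to 24.7 CPM in replicate 2, clear of the MT intervals in both.

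The log2 change of Solyc04g049800 was 2.63 ± 0.69 (SE; 95% interval 0.86 to 4.4), and 141 of the 18385 genes tested had a higher one. Adjusted over all genes it did not pass in edgeR's quasi-likelihood test (adjusted p = 0.345, unadjusted p = 0.0122), whereas DESeq2 gave an adjusted p of 0.0429 and called 0.761% of all genes higher. It was past the threshold against the MT pair with either 156OE library alone. Without 156OE replicate 2 the log2 change was 1.61 (edgeR adjusted p = 0.0287). Leaving out 156OE replicate 1 gave 3.44 (edgeR adjusted p = 0.000194). Such fits take the spread from the MT pair. They called 5.73% and 10.6% of all genes, of which higher calls made up 3.45% and 8.16% of all genes. Without MT replicate 1 or MT replicate 2, with the spread taken from the 156OE pair, the log2 change was 2.86 and 2.57 (edgeR adjusted p = 0.988 and 1.0).

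Solyc09g007260, the other TOE-like gene, was lower in 156OE in each pair of libraries but did not pass the test. It stood at 43.6 and 38.95 TPM in MT, 32.3 TPM in 156OE replicate 1 and 17.9 TPM in 156OE replicate 2. The groups did not overlap, and replicate 2 had the lowest level. Its log2 change was -0.52 ± 0.22 (SE; 95% interval -1.08 to 0.04; edgeR adjusted p = 0.453). With 156OE replicate 1 left out the log2 change was -0.92 (edgeR adjusted p = 0.0138, a fit that called 2.48% of all genes lower). With 156OE replicate 2 left out it was -0.28 (edgeR adjusted p = 0.286, with 2.28% of all genes called lower).

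AP2a was the other gene with lower values in both 156OE libraries. It had 56 reads in each MT library (3.42 and 4.14 TPM), 38 reads in 156OE replicate 1 (2.96 TPM) and 3 reads in 156OE replicate 2 (1.14 TPM). The 3 reads are at the floor for that library, with an exact Poisson 95% interval of 0.367 to 5.20 CPM. In MT the level was 5.49 ± 0.69 CPM (SD, n = 2). The intervals of the MT libraries, 3.78 to 6.49 and 4.515 to 7.76 CPM, overlap that of 156OE replicate 2. They also overlap that of 156OE replicate 1, 3.19 to 6.18 CPM. The log2 change of -0.54 ± 0.40 (SE; 95% interval -1.57 to 0.48) did not pass (edgeR adjusted p = 0.622). Leaving out 156OE replicate 2 gave -0.27 and leaving out 156OE replicate 1 gave -1.44, neither past the threshold.

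AP2d and AP2c had nearly the same profile over the libraries. AP2d stood at 52.0 and 57.7 TPM in MT, 78.8 TPM in 156OE replicate 1 and 45.8 TPM in replicate 2, and AP2c at 7.56, 8.71, 11.1 and 6.97 TPM in the same order. In TPM, 156OE replicate 1 was the highest library of both genes and replicate 2 the lowest. In scaled CPM, the scale of the fit, replicate 2 lay between the MT libraries. The groups thus overlapped on both scales. The log2 changes were 0.36 ± 0.20 (SE; 95% interval -0.16 to 0.88; edgeR adjusted p = 0.535) for AP2d and 0.36 ± 0.22 (95% interval -0.20 to 0.93; edgeR adjusted p = 0.56) for AP2c. Without 156OE replicate 2 AP2d was called higher (log2 change 0.60, edgeR adjusted p = 0.0138) and AP2c was not (0.53, edgeR adjusted p = 0.131). Without 156OE replicate 1 the log2 changes were 0.03 and 0.07.

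AP2b and AP2e, both at low levels, also resembled each other. AP2b had 3.24 and 3.86 TPM in MT and 3.88 and 5.17 TPM in 156OE, where the libraries of the groups barely cleared each other. AP2e had 2.36 and 3.14 TPM in MT and 2.64 and 4.03 TPM in 156OE, with overlap. Their log2 changes of 0.47 ± 0.32 (SE; edgeR adjusted p = 0.593) and 0.35 ± 0.41 (edgeR adjusted p = 0.757) did not pass, and no setting tried called either gene. Leaving out 156OE replicate 1 gave 0.84 for AP2b and 0.85 for AP2e, and leaving out 156OE replicate 2 gave 0.21 and 0.02. Their 95% intervals, -0.34 to 1.28 and -0.69 to 1.39, include both 0 and 1, and 156OE replicate 2 rests on 17 and 11 reads.

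**Figure D2:**
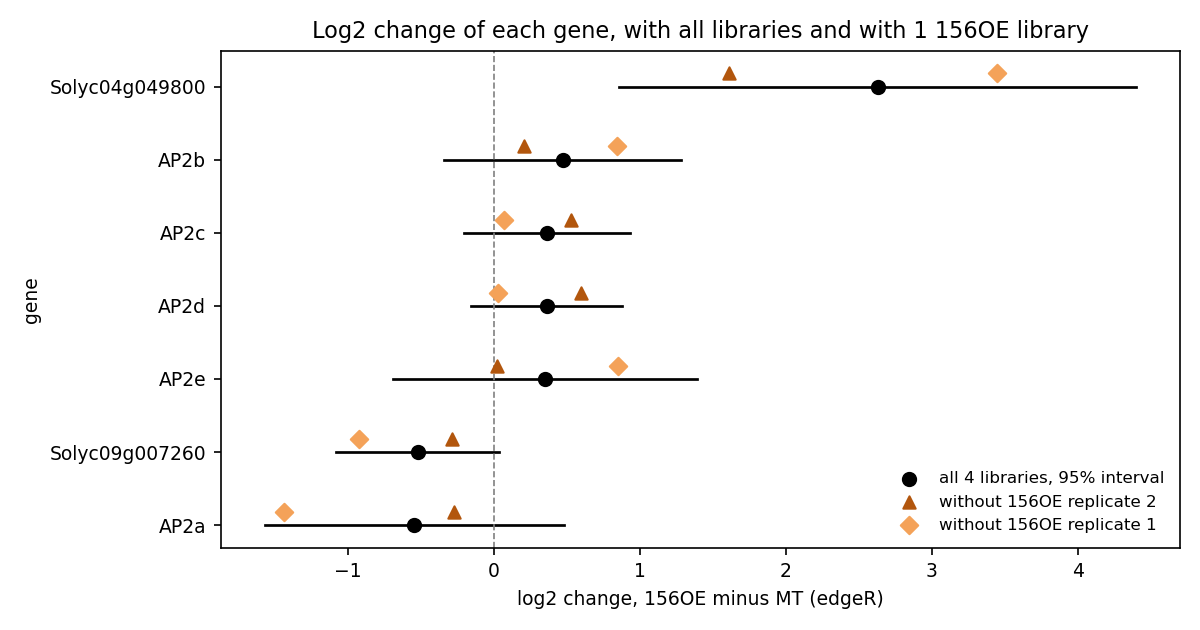
Log2 change of each gene between 156OE and MT (horizontal axis) in edgeR, with all 4 libraries (black points, bars for 95% intervals) and with 1 156OE library left out (coloured points). The bar of Solyc04g049800 lies above 0, from 0.86 to 4.4, and those of the other genes include 0.

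Across the 7 genes, 5 fitted log2 changes were above 0 and 2 below. Of the 18385 genes tested, 9474 were above 0 and 8911 below. The median was 0.36 in the 7 genes against 0.01 over all genes tested. Adjusted over all genes, edgeR called 0 of the 7, where it called 0.00544% of all genes, and DESeq2 called 1 of the 7, where it called 1.10%. At an unadjusted p under 0.05 in edgeR there was 1 of the 7, against 11.4% of all genes, or 6.28% for higher values alone. In scaled CPM, MT and 156OE libraries were fully separate for 4 of the 7 genes, against 46.5% of all genes. AP2b and Solyc04g049800 were the separate genes with higher values, a pattern of 22.8% of all genes, and AP2a and Solyc09g007260 those with lower values, a pattern of 23.8%. The counts at an unadjusted p and of separate libraries are near those backgrounds, and the DESeq2 count rests on Solyc04g049800 alone.

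Summed over the 7 genes, the pool overlapped between the genotypes, at 114 and 118 TPM in MT and 136 and 95.5 TPM in 156OE. Its make-up differed between the libraries. AP2d held 45.65% and 48.9% of the pool in MT and 57.8% and 47.9% in 156OE. The share of Solyc09g007260 was 38.25% and 33.0% in MT and 23.65% and 18.7% in 156OE. For Solyc04g049800 it was 1.56% and 1.24% in MT, then 3.48% and 15.2% in the 156OE libraries. In rank, Solyc04g049800 held place 7 of the 7 in both MT libraries, place 4 in 156OE replicate 1 and place 3 in replicate 2. AP2a held place 4 in both MT libraries and places 6 and 7 in 156OE, where place 7 rests on 3 reads. The whole pool rests on 244 reads in 156OE replicate 2 and 1731 in replicate 1, against 1905 and 1619 in MT.

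**Figure D3:**
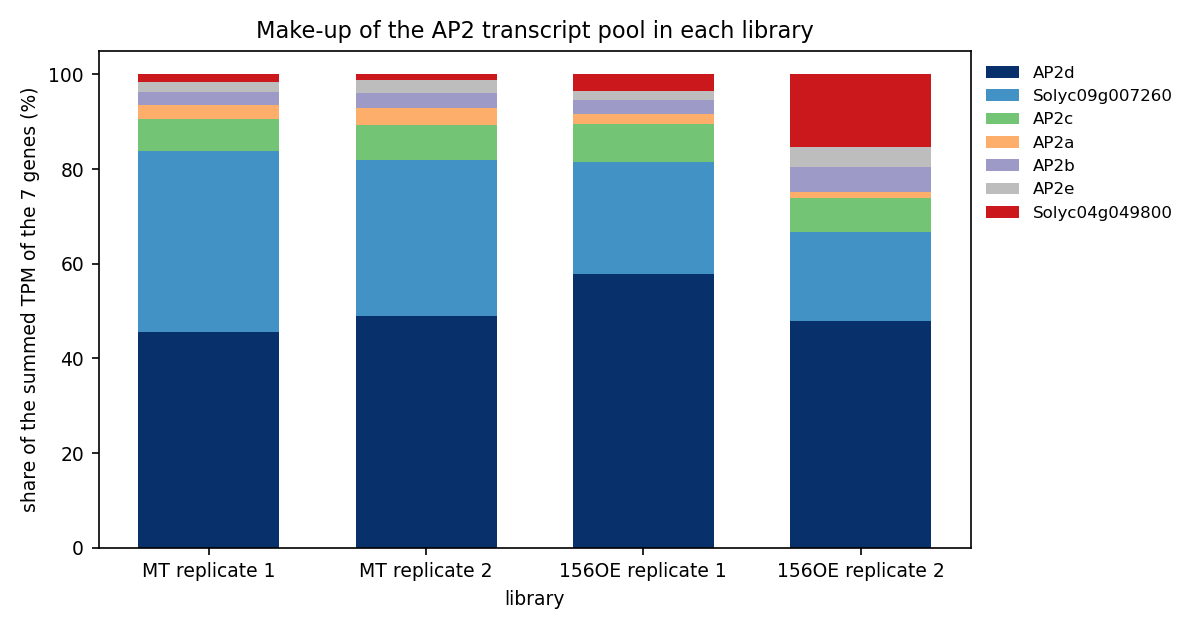
Share of the summed TPM of the 7 genes held by each gene (vertical axis, percent) in each library, as stacked bars. The segment of Solyc09g007260 is smaller in both 156OE libraries than in both MT libraries. That of Solyc04g049800 is at most 1.56% in MT, 3.48% in 156OE replicate 1 and 15.2% in 156OE replicate 2, the last from 29 reads.

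Ratios between genes of 1 library do not depend on how libraries are scaled against each other. The pairs described here were chosen after their values were seen, and no test was made. The ratio of the TOE-like genes, Solyc04g049800 to Solyc09g007260, was 0.0407 and 0.03765 in MT and 0.147 and 0.8145 in 156OE. Thus Solyc09g007260 was 24.6 and 26.6 times as high as its counterpart in MT, 6.80 times in 156OE replicate 1 and 1.23 times in replicate 2. AP2d to Solyc09g007260 stood at 1.19 and 1.48 in MT and 2.44 and 2.56 in 156OE, where the 156OE libraries lay close together. AP2c to AP2a was 2.21 and 2.10 in MT and 3.76 and 6.13 in 156OE, where the 6.13 rests on 3 AP2a reads. In each of these ratios both 156OE libraries were above both MT libraries.

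**Figure D4:**
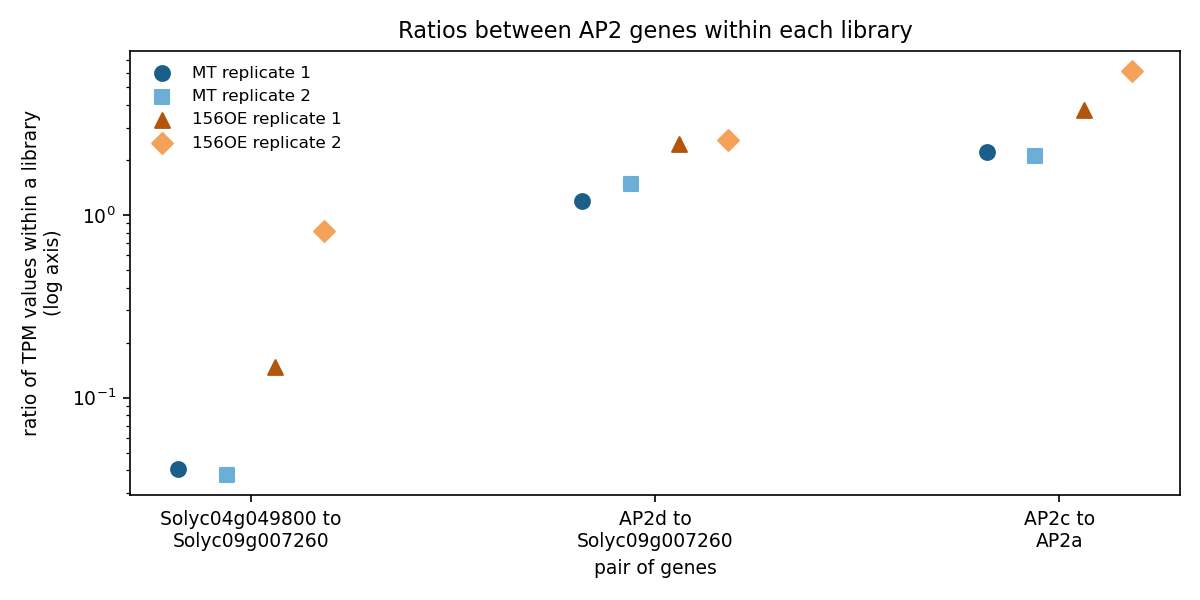
Ratio of TPM values between pairs of AP2 genes within each library (log axis), 1 point per library, for pairs chosen after their values were seen. The ratio of Solyc04g049800 to Solyc09g007260 is 0.0407 and 0.03765 in MT against 0.147 and 0.8145 in 156OE.

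Upstream in the pathway, most SBP-box genes had lower values in 156OE. Of 16 IDs written down as SBP-box genes, 14 were tested, and edgeR called 0 over all genes, with 9 lower and 0 higher at an unadjusted p under 0.05 (5.11% of all genes were lower by that measure). DESeq2 called 5 lower, where it called 0.337% of all genes lower. The median log2 change was -0.90, against 0.01 over all genes. Solyc03g114850 stood at 147 and 169 TPM in MT and 48.1 and 37.6 TPM in 156OE (log2 change -1.70 ± 0.13, SE; edgeR adjusted p = 0.132), and Solyc10g078700 at 71.2 and 77.2 against 23.2 and 15.04 TPM. SBP3 (Solyc10g009080) had 61.45 and 51.45 TPM in MT and 17.6 and 4.865 TPM in 156OE, the last from 4 reads. In scaled CPM, both 156OE libraries were below both MT libraries in 10 of the 14 tested IDs and above them in 1. Over all genes these patterns held for 23.8% and 22.8%. The ID above, Solyc01g090730, had 12.1 and 13.2 TPM in MT and 15.8 and 14.2 TPM in 156OE. Its log2 change of 0.42 ± 0.18 (SE) did not pass (edgeR adjusted p = 0.464), nor did DESeq2 call it. Among the AP2 genes, the lower values of AP2a and Solyc09g007260 passed in neither edgeR nor DESeq2 with all libraries. Most SBP-box values were thus lower, and changes in both directions were shown neither for that list nor for the AP2 genes.

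Of 9 tested flowering genes edgeR called 0 over all genes, with 1 higher and 2 lower at an unadjusted p under 0.05 (6.28% and 5.11% of all genes), and DESeq2 called 1 lower (0.337% of all genes). FA (Solyc03g118160), the tomato LEAFY gene, had 131.5 and 114.8 TPM in MT and 71.5 and 42.9 TPM in 156OE (edgeR adjusted p = 0.295; DESeq2 adjusted p = 0.034). The FRUITFULL-type gene MBP20 (Solyc02g089210) had 46.2 and 49.0 against 29.8 and 24.7 TPM, and its relative FUL1 (Solyc06g069430) 69.9 and 67.8 against 77.6 and 78.2 TPM. Among 5 tested ripening and ethylene genes, the setting in which AP2a is best known, edgeR called 0, with 0 at an unadjusted p under 0.05, and DESeq2 called 0. The ACC oxidase gene ACO1 (Solyc07g049530) had 14.6 and 11 TPM in MT, 5.785 TPM in 156OE replicate 1 and 59.0 TPM in replicate 2 (edgeR adjusted p = 0.622).

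Among 6 tested floral organ and meristem genes edgeR called 0, with 0 at an unadjusted p under 0.05, and DESeq2 called 0. The summed level of the 7 admitted genes of that list was 137 and 131 TPM in MT, 195.5 TPM in 156OE replicate 1 and 97.6 TPM in replicate 2. As in AP2c and AP2d, 156OE replicate 1 was the highest library in TPM and replicate 2 the lowest. By the mean absolute difference of centred log2 CPM over the 4 libraries, the nearest of 41 listed genes to both AP2c and AP2d was the B-class MADS-box gene TM6 (Solyc02g084630), at 0.067 and 0.082, with 51.3 and 49.45 TPM in MT and 68.5 and 43.25 TPM in 156OE. The distances use scaled CPM, in which 156OE replicate 2 was not the lowest library for AP2c, AP2d or TM6. AP2c and AP2d lay 0.042 from each other and AP2b and AP2e 0.080. For Solyc09g007260 the nearest was S (Solyc02g077390), a WOX homeobox gene of inflorescence branching, at 0.090. AP2a lay nearest to MBP10 (Solyc02g065730), a FRUITFULL-type gene with 1 read in 156OE replicate 2, at 0.112. AP2b and AP2e both had ACS2 (Solyc01g095080), an ethylene synthesis gene with at most 21 reads in a library, as nearest, at 0.157 and 0.208. Solyc04g049800 had no near neighbour, the least distant being the Rubisco gene RBCS3 (Solyc02g085950) at 0.493. With 4 libraries such likeness is a description only.

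**Figure D5:**
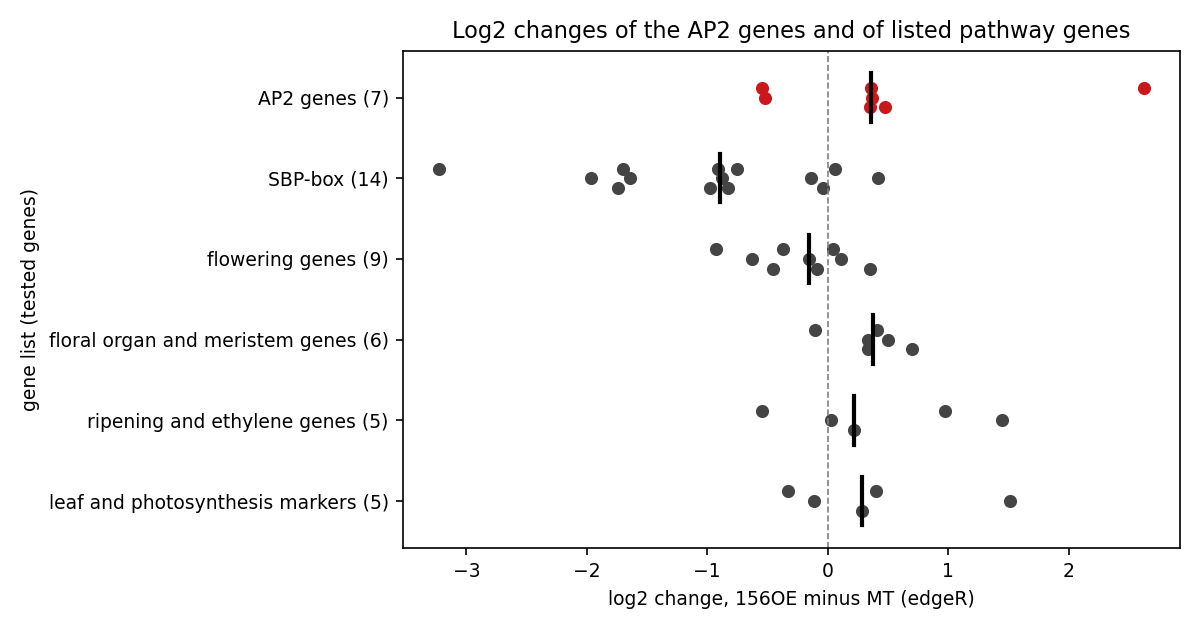
Log2 change between 156OE and MT in edgeR (horizontal axis) of the 7 AP2 genes (red) and of the tested genes of 5 lists (grey), 1 point per gene, with the median of each list as a vertical bar. The median is 0.36 for the AP2 genes and -0.90 for the SBP-box list.

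Markers of other tissues differed between libraries unevenly. The 5 leaf and photosynthesis markers admitted, of 6, summed to 1317 and 1386 TPM in MT and 1707 and 1450 TPM in 156OE, and none was at 0. Within them only RBCS3 was highest in 156OE replicate 2, as was Solyc04g049800, with 213 and 209 TPM in MT and 354 and 692.5 TPM in 156OE. All other admitted leaf markers had their lowest TPM in 156OE replicate 2. CAB4 (Solyc07g047850), a light-harvesting gene, was at 191 TPM there against 453 to 517 TPM elsewhere. In the same library CAB3C was at 25.9, RBCS1 at 87.0 and psaD at 454 TPM. In scaled CPM psaD was not lowest in that library. On that scale psaD and RBCS3 had both 156OE libraries above both MT libraries, a pattern of 22.8% of all genes. The log2 change of psaD was 0.28 (edgeR adjusted p = 0.452). Of 5 anther and pollen markers 2 were admitted. LAT52 (Solyc10g007270) had 1 read in MT replicate 2 and none in the other libraries. LAT56 (Solyc03g058910) had 4.71 and 3.55 TPM in MT and 1.22 and 0.848 TPM in 156OE, the last from 2 reads. Of 3 carpel markers 2 were admitted. CRCa (Solyc01g010240), a CRABS CLAW-type gene, had 2.69 and 1.52 TPM in MT and 13.2 and 9.11 TPM in 156OE. These values rest on 13 and 6 reads in MT and 49 and 7 in 156OE. Neither LAT56 nor CRCa passed over all genes, in edgeR (adjusted p = 0.302 and 0.262) or in DESeq2 (adjusted p = 0.582 and 0.139). CRCb (Solyc05g012050) had at most 3 reads in MT and none in 156OE. The part of tissue make-up and of depth in the AP2 values was not tested.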

How the data were processed

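The deposited tables are Salmon transcript quantifications, per the file headers, with 1 transcript per gene ID. Trimmomatic, HISAT2, Picard and SAMtools are also named in the submitters' processing notes, with no version. The genome build was not given in the sources used here. Estimated counts, as deposited by the authors, were not normalized and were rounded to whole numbers before tests. The TPM values deposited by the authors sum to 1000000 per library. Deposited effective lengths served 1 alternative.

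The main test was edgeR 4.0.16 in R 4.3.3, two-sided, by quasi-likelihood, after filterByExpr and TMM scaling, with only genotype in the model, and Benjamini-Hochberg adjustment at 0.05. Each SE was obtained from the F statistic and the unshrunk log2 change. Fits were tested on simulated data. No permutation test was used, since 2 libraries against 2 allow no exact p below 0.333. No set test was made. Alternatives were DESeq2 1.42.0, limma 3.58.1 on log2(TPM + 1) and log2(TPM + 0.1), RLE scaling, no filter, effective lengths as an offset, blocks of same-numbered and (added after seeing the data) crossed replicates, and leaving out each library.

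Members and lists were chosen with earlier results of these data known. The files do not pair IDs with names. Recalled symbols were looked up in the RefSeq gene table (assembly SLM_r2.1) and kept if on the chromosome of the ID and within 0.03 in relative gene order. AP2a to AP2e passed, AP2a narrowly at 0.029. No symbol was looked up for the TOE-like IDs, whose name is thus unchecked. IDs whose symbol failed or was not in the table entered no list. Of the SBP-box IDs, CNR and SBP3 passed, and the others were kept with no symbol looked up. The planned list of TOPLESS co-repressors had no admitted ID and was dropped. Genes named are the 7 members, up to 3 checked genes per list with the lowest p (for the SBP-box list the checked SBP3 and the 2 IDs of lowest p), and nearest profiles; other named markers, CRCb and CAB4 among them, were chosen after their values were seen.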

Additional observations from a re-analysis of the deposited data

How the results depend on the processing

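Every one of the 12 alternatives kept the sign of the log2 change of each of the 7 AP2 genes, and none called AP2a, AP2b, AP2c or AP2e. Calls appeared for Solyc04g049800 with DESeq2 (2.73, adjusted p = 0.0429). Leaving out each library in turn, its log2 change ran from 1.61 to 3.44, that of AP2d from 0.029 to 0.595 and that of Solyc09g007260 from -0.92 to -0.28. The value of Solyc04g049800 was 1.85 in limma on log2(TPM + 1), where the median of all genes lay at -0.17, and 2.50 with a replicate block (limma adjusted p = 0.457, edgeR adjusted p = 0.634). The replicate block changed no call of an AP2 gene. Replicate numbers are not stated to pair libraries: deviations of same-numbered libraries correlated at -0.251 across genes.

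Over all genes edgeR called 1. The count was 85 with no low-count filter, 206 with DESeq2, 0 in both limma settings (1830 and 1790 at an unadjusted p under 0.05, against 2095 in the main test), 0 with the replicate block (1320) and 0 with the crossed block (1920), and ran from 0 to 1998 on leaving out a library. DESeq2 called 5 SBP-box IDs and 1 flowering gene. Leaving out a library, counts ran from 0 to 9 for the SBP-box list, 0 to 2 for the flowering, ripening and ethylene, and leaf lists, 0 to 3 for the floral organ and meristem list, and 0 to 1 for the anther and the carpel lists. The cause of these moves was not tested. In CPM, which favours long transcripts, AP2d held 42.0% and Solyc09g007260 39.4% of the pool in MT, against 47.3% and 35.6% in TPM. Depth limits the genes of low level: AP2a, AP2b and AP2e had 3 to 17 reads in 156OE replicate 2, and Solyc04g049800 had 22 and 15 reads in MT.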
